A study of Mus musculus with 2 samples.

Results

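The MYC, MAX and MXD network is a small family of DNA-binding proteins, and its 9 genes were followed here among the 27998 genes measured. They were chosen by gene symbol in the feature lists of both libraries: the MYC paralogs Myc, Mycn and Mycl, their partner Max, and the antagonists Mxd1, Mxd3, Mxd4, Mxi1 and Mnt. Droplet sequencing measured single LSK cells (Lin-, Sca-1+ and c-Kit+) sorted from the bone marrow of mice 3 months old. This fraction holds the haematopoietic stem cells and their early progeny, and the sort's stain also held a Flt3 antibody. The WT library is labelled Trmt6fl/fl and the cKO library Trmt6fl/fl, MX1-cre. The labels thus give the floxed allele to both groups and the recombinase to cKO alone, whereas the study's text on this experiment describes Mx1-Cre in both genotypes, unfloxed Trmt6 in the controls, and pIpC injections without naming a genotype that was spared. Trmt6 is needed to make m1A, a methylated base of tRNA, and Mx1-Cre is driven by an interferon-responsive promoter, so that it acts in blood cells and in other cells that respond to interferon. Each genotype is 1 library from an unstated number of mice, so genotype and library cannot be told apart and no difference below has a replicate check.

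MYC proteins bind DNA only as dimers with MAX, mostly at the E-box CACGTG, and drive genes of ribosome production, metabolism and the cell cycle. MXD proteins and MNT also pair with MAX and bind the same sites, where they recruit the SIN3 corepressor and so counter MYC. In marrow, Mycn RNA is known from the most primitive cells and Myc from dividing progenitors, and stem cells need at least one of the pair. MXD genes are usually associated with exit from the cell cycle and with differentiation, apart from Mxd3, which is known from dividing cells.

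The promoters of Mxd4, Mnt and Mycn are shown because the first 2 carry the E-box that the network itself binds and Mycn carries another motif of proliferation genes. RefSeq windows of GRCm38.p6, from 250 bases before to 50 after a start site, were found for 8 of the 9 genes, all but Myc. Capitals mark CACGTG in Mxd4 and Mnt, and in Mycn the E2F-type letters TTTNGCGC or, on the other strand, GCGCNAAA. Only bases upstream of the start site and of the annotated gene are printed, 5′ to 3′ on the gene's strand, from chr5:34187721-34187960 (minus strand) for Mxd4, chr11:74830674-74830919 (plus strand) for Mnt and chr12:12941915-12942086 (minus strand) for Mycn.
Mxd4: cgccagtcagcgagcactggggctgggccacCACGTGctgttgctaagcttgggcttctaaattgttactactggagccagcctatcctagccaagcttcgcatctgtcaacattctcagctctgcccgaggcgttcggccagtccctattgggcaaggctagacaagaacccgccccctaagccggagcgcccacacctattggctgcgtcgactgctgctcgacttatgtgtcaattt
Mnt: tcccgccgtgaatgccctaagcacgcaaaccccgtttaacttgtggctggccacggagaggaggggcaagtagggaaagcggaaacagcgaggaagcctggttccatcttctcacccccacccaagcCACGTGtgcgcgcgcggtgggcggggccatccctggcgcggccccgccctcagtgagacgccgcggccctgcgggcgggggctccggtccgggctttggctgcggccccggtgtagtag
Mycn: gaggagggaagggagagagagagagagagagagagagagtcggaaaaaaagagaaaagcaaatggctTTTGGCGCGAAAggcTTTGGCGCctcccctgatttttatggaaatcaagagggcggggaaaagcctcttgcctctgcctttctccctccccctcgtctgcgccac

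The E-box was present in 3 of the 8 genes with a window (Max, Mxd4 and Mnt), against 8.09% of all 27025 genes with a window. It begins 219 bases before the start site in Mxd4, 123 before it in Mnt, and 3 before it in Max. The E2F-type motif was present in Mycn alone of the 8, with 3 matches of which the first and the second overlap, against 1.57% of all genes. These matches describe letters in a window and were not tied to any binding measurement.

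After filtering, 8149 WT cells with 42097695 UMIs and 8477 cKO cells with 87377064 UMIs were kept, at a median of 4177 and 10068 UMIs per cell. Levels below are CPM, a gene's UMIs summed over cells and scaled to the same total in each library, and each log2 ratio is cKO over WT with its 95% interval, which covers counting error only. Because UMIs were counted at 3′ ends, levels are compared between cells of the same gene and not between genes. Shares and ratios of UMIs that pool several genes serve only to compare the libraries or classes of cells, since their absolute size also depends on how well each gene is captured. The libraries shared 24 cell barcodes, and leaving those cells out moved no member's log2 ratio over all cells beyond its interval. Trmt6 itself stood at 63.6 CPM in WT against 49.96 CPM in cKO (log2 ratio -0.35, -0.42 to -0.28), but 3′ UMIs can count transcripts that lack a floxed exon, so this level does not check the deletion. For comparison, 9153 genes reached 5 CPM in either library. Their median log2 ratio was -0.07, with 8.96% of them higher and 17.8% lower in cKO by a log2 ratio of 0.5 or more.

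Over all kept cells, Mycn was higher in the cKO library and every antagonist was lower. Myc was lower and Max higher by less than a log2 ratio of 0.5. Past a log2 ratio of 0.5 were 7 of the 9 genes, with Mycn alone higher. Of the 8 at 5 CPM or more, 1 was higher and 5 were lower, against the 8.96% and 17.8% of all genes given above. With TMM factors, median-of-ratios factors or a total without mitochondrial and ribosomal protein genes, the median of all genes was up to 0.10 higher on the log2 scale, 12.7% of genes were higher and 13.0% lower with the median-of-ratios factors, and 6 of the 9 were past 0.5, since Mxi1 then stood at -0.46. Those scalings left the direction of all 9 genes as it was. When both libraries were given the same mix of gates and phases, the log2 ratio was 1.49 for Mycn and -0.40 for Myc. Over summed cells, fewer cells of a type and less RNA per cell cannot be told apart.

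**Figure D1:**
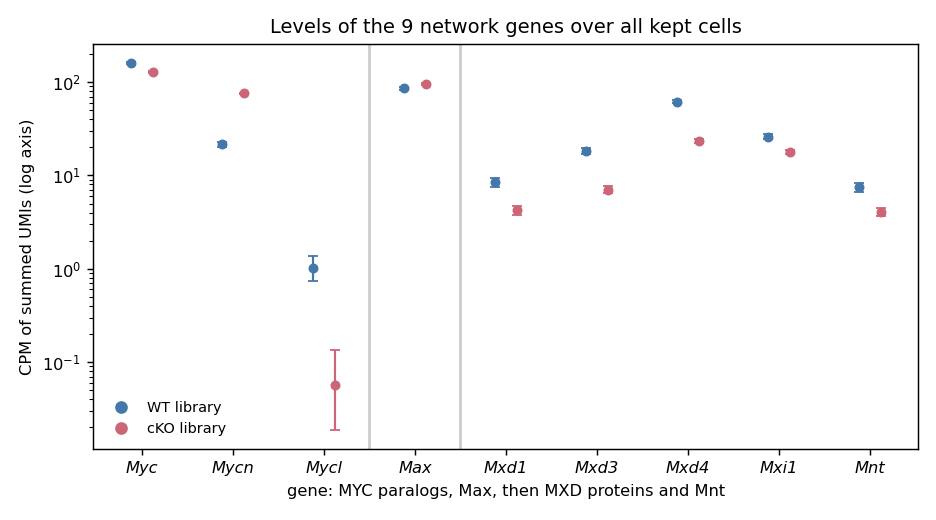
CPM of each network gene over all kept cells (log axis) in the WT (blue) and cKO (red) library, with exact Poisson 95% intervals for counting error and 1 library per genotype. Mycn stands higher in cKO (75.4 against 21.6 CPM), Mycl and the 5 antagonists stand lower, and Myc and Max lie close together in both libraries.

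Gene positions below are those of the GENCODE annotation of GRCm38. Mycn (ENSMUSG00000037169, chr12:12936093-12941914, minus strand) encodes N-MYC, the paralog of primitive and embryonic cells. It was at 21.6 CPM in WT (909 UMIs) against 75.4 CPM in cKO (6587 UMIs), a 3.49-fold difference with a log2 ratio of 1.80 (1.70 to 1.91). The share of cells with a Mycn UMI, after every cell was thinned to 2000 UMIs, was 5.14% (Clopper-Pearson interval 4.67 to 5.65) in WT and 14.3% (13.6 to 15.1) in cKO. The WT and cKO intervals do not overlap at matched depth. Without thinning, at the unequal median depths given above, the shares were 8.73% and 43.2%. As a background, 0 of 61 WT cells in a neutrophil gate held a Mycn UMI at a median of 5785 UMIs, for which a limit of 3 counts gives up to 4.92%, and in the granulocyte-monocyte progenitor gate 1 of 751 WT cells (0.133%) did so after thinning, at a median depth of 10708 UMIs before it. In cKO, 0 of 55 cells of a B-cell gate did so after thinning (median depth 7515 UMIs), for which the same limit gives 5.45%, and 1.82% did so without it. Without thinning, 1.33% of WT cells in the granulocyte-monocyte progenitor gate held a Mycn UMI. In cKO that gate gave 2.33% after thinning and 4.65% without it. A monocyte/DC gate in cKO gave 0 of 34 cells after thinning and 8.82% without it.

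Myc (ENSMUSG00000022346, chr15:61985391-61990374, plus strand) encodes c-MYC, the most widely used paralog. It was at 159 CPM in WT (6674 UMIs) against 127 CPM in cKO (11137 UMIs), which gives a log2 ratio of -0.31 (-0.36 to -0.27). In thinned cells, 26.5% (25.6 to 27.5) of WT and 20.9% (20.02 to 21.8) of cKO cells held a Myc UMI, against 47.1% and 60.2% without thinning. The unthinned shares run the other way from the CPM and give no order. Mycn made up 11.9% of the UMIs of the paralogs in WT (11.2 to 12.7) and 37.2% in cKO (36.4 to 37.9).

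Mycl (ENSMUSG00000028654, chr4:122995652-123002485, plus strand), which encodes L-MYC, a paralog known from dendritic cells, was rare. There were 43 UMIs in WT (1.02 CPM) and 5 in cKO (0.0572 CPM), a log2 ratio of -4.04 (-5.85 to -2.82). The value was -2.11 (-4.27 to -0.64) with cells thinned to 2000 UMIs and -2.70 (-3.76 to -1.81) with each cell scaled before averaging, and it rests on the 5 cKO UMIs. In a monocyte/DC gate (Cd74, H2-Aa, Irf8 and 5 more markers), which held 0.578% of WT and 0.406% of cKO cells, lay 12 of the 43 WT UMIs and all 5 cKO UMIs. Within that gate Mycl was at 46.3 CPM in WT against 26.4 CPM in cKO, and the log2 ratio of -0.74 had an interval from -2.67 to 0.79. Outside it 31 WT UMIs stood against 0 in cKO. With cKO set at the limit of 3 counts Mycl was 21.7-fold lower there, a value that leaves out the counting error of the WT UMIs. Of the WT UMIs, 9 lay in lymphoid-primed cells and 18 in cells of no gate. In the HSC gate no Mycl UMI was seen in either library, which allows up to 3.12 CPM in WT against 0.649 CPM in cKO.

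Max (ENSMUSG00000059436, chr12:76937269-76962201, minus strand), the shared partner of every other member, was at 85.6 CPM in WT (3605 UMIs) against 95.2 CPM in cKO (8321 UMIs). Its log2 ratio of 0.15 (0.10 to 0.21) was the smallest in size of the 9 on this scale, whereas with the TMM factors Max stood at 0.25 and Myc, at -0.22, was smaller. With cells thinned to 2000 UMIs the value for Max was 0.05 and its interval (-0.05 to 0.16) included 0. Max differed little across the cell cycle, being lower in G2/M than in G1 by a log2 ratio of -0.12 in both libraries (-0.24 to -0.0041 in WT and -0.20 to -0.04 in cKO), with 88.7, 87.6 and 81.6 CPM in WT cells of G1, S and G2/M phase and 98.3, 96.3 and 90.7 CPM in the cKO cells.

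The antagonists were all lower in the cKO library. Mxd4 (ENSMUSG00000037235, chr5:34173883-34187720, minus strand), a MAX-binding repressor of the MXD group, was at 61.3 CPM in WT (2580 UMIs) against 23.5 CPM in cKO (2053 UMIs), which gives a log2 ratio of -1.38 (-1.47 to -1.30). Mxd3 (ENSMUSG00000021485, chr13:55325168-55329823, minus strand), the member tied to dividing cells, was at 18.1 CPM in WT against 7.04 CPM in cKO, which gives a log2 ratio of -1.36 (-1.52 to -1.21). Both therefore stood well below the median of all genes in cKO. Mxd1 (ENSMUSG00000001156, chr6:86647042-86669161, minus strand), known as MAD1 and linked to myeloid maturation, was at 8.43 CPM in WT against 4.21 CPM in cKO, which gives a log2 ratio of -1.002 (-1.22 to -0.79). Mnt (ENSMUSG00000000282, chr11:74830920-74845725, plus strand), the broadly used antagonist, was at 7.44 CPM in WT against 4.07 CPM in cKO, which gives a log2 ratio of -0.87 (-1.09 to -0.64). Mxi1 (ENSMUSG00000025025, chr19:53310518-53375810, plus strand), a further repressor of the MXD group, differed least, at 26.1 CPM in WT against 17.7 CPM in cKO, which gives a log2 ratio of -0.56 (-0.67 to -0.45). Mxd4 supplied 50.5% of the antagonist UMIs in WT and 41.6% in cKO, and Mxi1 supplied 21.5% and 31.3%.

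Some of the Mxd1 and Mxd3 signal in WT came with cells that carry neutrophil markers, a type that the sort is meant to leave out. The neutrophil gate held 61 WT cells (0.767%) and 0 cKO cells of 8373, for which the limit of 3 counts gives 0.0358%. Of the 61 cells, 68.9% were assigned to G2/M and 21.3% to G1, and the part of this phase mix in their Mxd3 level was not tested. The 7 neutrophil markers summed to 5519 CPM over all WT cells and to 8.02 CPM over all cKO cells, with none of them at 0 in either library. In the gated WT cells Mxd1 was at 74.1 CPM (31 UMIs, 8.76% of the Mxd1 UMIs in WT cells deep enough to gate), Mxd3 at 62.1 CPM and Myc at 21.5 CPM. In the monocyte/DC gate Mxd3 was at 77.2 CPM in WT (20 UMIs) against 5.27 CPM in cKO (1 UMI). The log2 ratio there was -3.32 (-9.25 to -1.23). Without the cells of the 5 other-lineage gates (neutrophil, B, T/NK, monocyte/DC and mast/basophil) the log2 ratio was -0.90 for Mxd1 and -1.30 for Mxd3, but neutrophil markers still summed to 840 CPM in WT against 8.01 CPM in cKO outside the neutrophil gate, and their part in these values was not tested.

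The balance within a library does not depend on how libraries are scaled. UMIs of the 3 paralogs per UMI of the 5 antagonists were 1.49 in WT (7626 against 5107) and 3.59 in cKO (17729 against 4937), a log2 ratio of 1.27 (1.198 to 1.33). The cKO value was higher in each of the 5 lineage gates and each of the 3 phases, with an interval above 0 in all 8. Under 7 other gate settings it stayed higher in all 5 gates, with intervals above 0 throughout in the HSC and megakaryocyte gates. With gates set at 1000 UMIs the log2 ratio was 0.28 (-0.47 to 1.02) in the erythroid gate and 0.50 (-0.03 to 1.03) in the LMPP gate, and with gates at 5% of WT cells it was 0.78 (-0.15 to 1.71) in the GMP gate. In the HSC gate it was 1.51 in WT and 3.10 in cKO. Among these 5 gates and 3 phases it was highest in S phase cells, at 2.06 and 4.67, and lowest in G2/M cells, at 1.03 and 2.62. The erythroid gate of WT was level with S phase, also at 2.06.

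**Figure D2:**
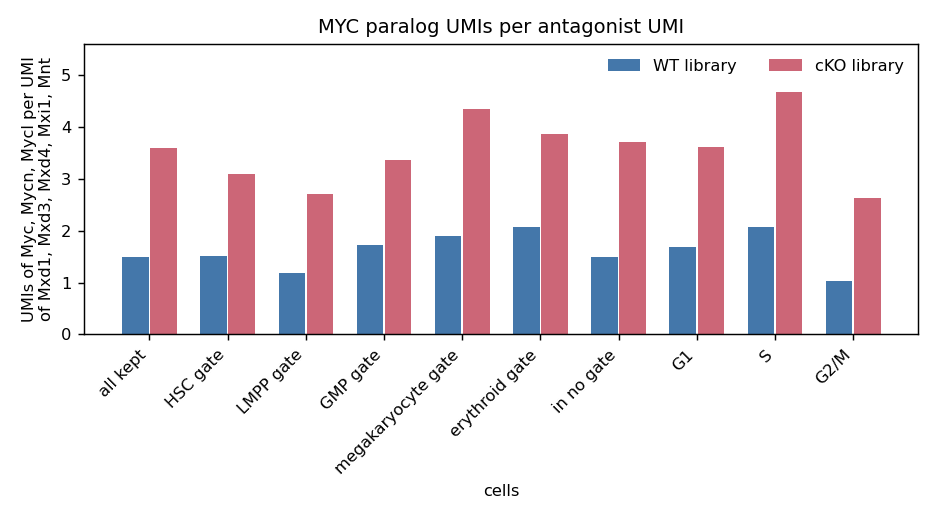
Bars give UMIs of Myc, Mycn and Mycl per UMI of Mxd1, Mxd3, Mxd4, Mxi1 and Mnt in the WT (blue) and cKO (red) library, from an axis that starts at 0, with no error bars. The red bar is higher in every class, from 2.62 in G2/M cells to 4.67 in S phase cells, against 1.03 to 2.06 for WT.

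Lineage gates were set on summed UMIs of marker genes in cells thinned to 2000 UMIs, with the same number of UMIs required in both libraries, and they use no network gene. The HSC gate (Procr, Hlf, Mecom and 7 more) held 302 WT and 605 cKO cells. The LMPP gate for lymphoid-primed progenitors (Flt3, Dntt and 6 more) held 627 and 126 cells, and the GMP gate for granulocyte-monocyte progenitors (Mpo, Elane and 4 more) held 751 and 43. The megakaryocyte gate held 304 and 76 cells and the erythroid gate 172 and 63. No gate took in 5502 WT and 7256 cKO cells, 69.2% and 86.7%. The gated cells of the 2 libraries were not equally marked: summed HSC markers were at 1518 CPM in WT against 998 CPM in cKO, megakaryocyte markers at 3585 and 1062 CPM, and GMP markers at 22369 and 14489 CPM, and the part of this in the differences below was not tested.

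Mycn differed widely between the gates. In WT it was at 91.6 CPM in the megakaryocyte gate (130 UMIs), 56.2 CPM in the HSC gate (54 UMIs) and 41.9 CPM in the erythroid gate (35 UMIs), where the last pair overlap in their intervals. It was at 12.8 CPM in the LMPP gate and 1.23 CPM in the GMP gate, with 10 UMIs in 751 GMP-gated cells. In WT the HSC gate thus exceeded the GMP gate by 5.46 on the log2 scale (4.53 to 6.66) and in cKO, where the GMP gate held 2 Mycn UMIs, by 5.32 (3.79 to 8.69). In cKO the order began with the HSC gate at 134 CPM (621 UMIs) and the megakaryocyte gate at 121 CPM (97 UMIs), which did not differ beyond counting error, followed by erythroid at 57.6, LMPP at 29.6 and GMP at 2.69 CPM. Among the 5 lineage gates, Mycn was thus lowest in the granulocyte-monocyte gate of both libraries and high in the stem cell and megakaryocyte gates.

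Between libraries, Mycn was higher in cKO within the HSC gate (log2 ratio 1.25, 0.86 to 1.69), the LMPP gate (1.21, 0.44 to 1.97) and, barely, the megakaryocyte gate (0.40, 0.01 to 0.79). In the erythroid gate the value of 0.46 (-0.24 to 1.16) and in the GMP gate the value of 1.38 (-2.10 to 3.36) were within counting error. When the top 5% of each library were gated, with 308 cKO cells in place of 43, the GMP value was 3.95 (2.69 to 6.03). The gates differ in these values, and that difference was not tested. With gates set on cells thinned to 1000 UMIs, the HSC value was 0.48 (0.14 to 0.86), and the erythroid value changed sign within its counting error. With gates at 5% of WT cells the LMPP value was 0.28 (-1.43 to 1.63) and the megakaryocyte value 0.40 (-0.15 to 0.91), so of these gates the HSC gate alone kept an interval above 0 under all 7 other settings. Over all genes at 5 CPM or more, intervals lay above 0 for 10.8% in the HSC gate, 12.5% in LMPP, 11.4% in GMP, 8.89% in megakaryocyte and 8.18% in erythroid. After thinning, 10.6% (7.36 to 14.6) of HSC-gated WT cells and 22.6% (19.4 to 26.2) of HSC-gated cKO cells held a Mycn UMI. Mycn made up 25.2% (19.6 to 31.6) of the paralog UMIs of the HSC gate in WT and 55.0% (52.0 to 57.9) in cKO. Over all thinned cells, Mycn UMIs were about as frequent with a Myc UMI as without: 14.4% of cKO cells with a Myc UMI and 14.3% of those without one held a Mycn UMI, and in WT the shares were 4.83% and 5.25%. Among HSC-gated cells the shares were 23.8% and 22.4% in cKO, and 5.06% (1.40 to 12.5) and 12.6% (8.51 to 17.6) in WT, where 4 and 28 cells held a Mycn UMI.

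**Figure D3:**
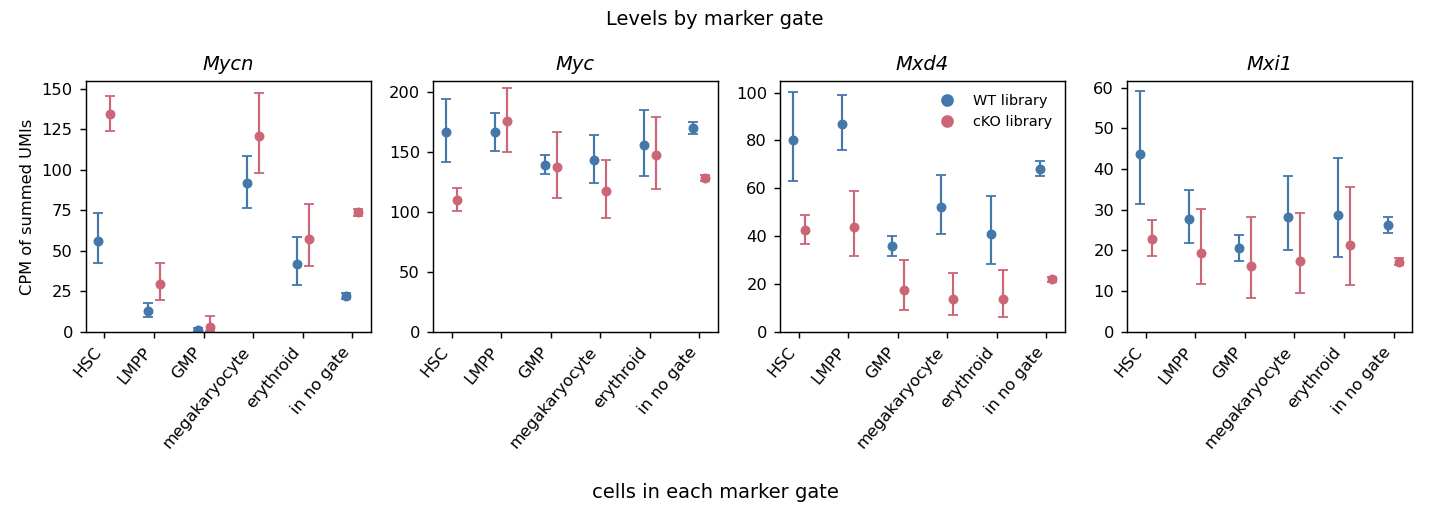
CPM of Mycn, Myc, Mxd4 and Mxi1 in each marker gate and in cells of no gate, for the WT (blue) and cKO (red) library, with exact Poisson 95% intervals on linear axes from 0. Mycn is near 0 in the GMP gate and reaches 134 CPM in the cKO HSC gate, and Mxd4 is lower in cKO in all 5 gates.

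Myc spanned a narrow range over the 5 lineage gates, though in the other-lineage gates it was as low as 21.5 CPM among WT neutrophil-gated cells. Over those 5 gates it ranged in WT from 139 CPM in the GMP gate to 167 CPM in the HSC gate, with 166 CPM in the LMPP gate. In cKO it ranged from 110 CPM in the HSC gate to 175 CPM in the LMPP gate. The interval of its log2 ratio lay below 0 in the HSC gate (-0.60, -0.86 to -0.33), as it did in cells of no gate (-0.41, -0.46 to -0.36). With at least 3 markers required the HSC value was -0.27 (-0.62 to 0.11). In the LMPP, GMP, megakaryocyte and erythroid gates the values were 0.08, -0.02, -0.28 and -0.08 and their intervals included 0. Within cKO, Myc was lower in the HSC gate than in the LMPP gate by a log2 ratio of -0.68 (-0.93 to -0.42), whereas in WT that value was 0.01 (-0.27 to 0.27).

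Mxd4 was the antagonist with enough UMIs to be followed in every gate, and its interval lay below 0 in all 5. It was at 80.1 CPM in WT against 42.4 CPM in cKO in the HSC gate, a log2 ratio of -0.92 (-1.30 to -0.52), and at 86.9 and 43.8 CPM in the LMPP gate. It was at 35.9 and 17.5 CPM in the GMP gate. In the megakaryocyte gate it was at 52.1 and 13.7 CPM, a log2 ratio of -1.87 (-2.99 to -1.01), and in the erythroid gate at 40.7 and 13.6 CPM. Among these 5 gates, Mxd4 thus had its highest levels in the HSC and LMPP gates of both libraries. When a gate required at least 3 markers in place of 2, the HSC value was -0.43 and its interval (-0.96 to 0.17) included 0. With gates at 5% of WT cells it was -0.37 (-1.03 to 0.21) in the LMPP gate and -0.51 (-2.28 to 0.62) in the GMP gate. With at least 3 markers the interval included 0 in the megakaryocyte gate (-1.42, -4.83 to 0.24), and with gates set at 1000 UMIs it did so in the erythroid gate (-0.80, -2.04 to 0.32). Mxd4 stayed below 0 in all 5 gates under all 7 other settings. G1 cells made up 80.8% of the HSC gate in WT and 60.8% in cKO. In G1 cells of the HSC gate the Mxd4 log2 ratio was -0.56 (-0.995 to -0.09). It was -1.02 (-2.43 to 1.11) in S and -1.47 (-2.41 to -0.35) in G2/M cells of that gate. In the LMPP gate it was -0.54 (-1.26 to 0.07) in G1 cells. There it was -0.59 (-1.67 to 0.33) in S and -1.76 (-3.36 to -0.66) in G2/M cells. The part of the phase mix in the gate values was not tested.

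For the other antagonists the gates hold few UMIs. Among the 24 values of an antagonist in a gate with more than 3 UMIs in a library, all 24 lay below 0, and for 10 of them, 5 of these from Mxd4, the interval did so too. Over all genes at 5 CPM or more, the value lay below 0 for 60.9% in the HSC gate, 51.3% in LMPP, 47.2% in GMP, 55.9% in megakaryocyte and 52.4% in erythroid, and the interval did so for 19.7% in the HSC gate, 12.5% in LMPP, 10.9% in GMP, 11.5% in megakaryocyte and 8.33% in erythroid. Under one or more of the 7 other gate settings, 8 of the 24 values lay above 0, and the interval included 0 for each of the 10. The 24 values pool the phases of each gate. In G1 cells of the HSC gate Mxd1 was at 0.47 (-0.97 to 2.61), from 4 UMIs in WT and 20 in cKO. There Mxd4, Mxi1 and Mnt had intervals below 0, and Mxd3 had no more than 3 UMIs in either library. In the HSC gate Mxi1 was at 43.7 CPM in WT against 22.7 CPM in cKO (-0.95, -1.47 to -0.39), and Mnt had 8 UMIs in each library, at 8.33 and 1.73 CPM (-2.27, -3.88 to -0.65). With gates set at 3000 UMIs these values were -0.0042 (-0.57 to 0.67) for Mxi1 and -0.79 (-1.99 to 0.86) for Mnt. In the LMPP gate Mxd1 was at 13.5 and 4.08 CPM and Mxd3 at 16.2 and 5.10 CPM, with intervals of the log2 ratio below 0 for both. For Mxd3 in the LMPP gate, which rests on 5 cKO UMIs, the sign turned with gates set at 1000 UMIs. For the other 14 values the interval included 0, so a difference was not detectable at this depth.

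**Figure D4:**
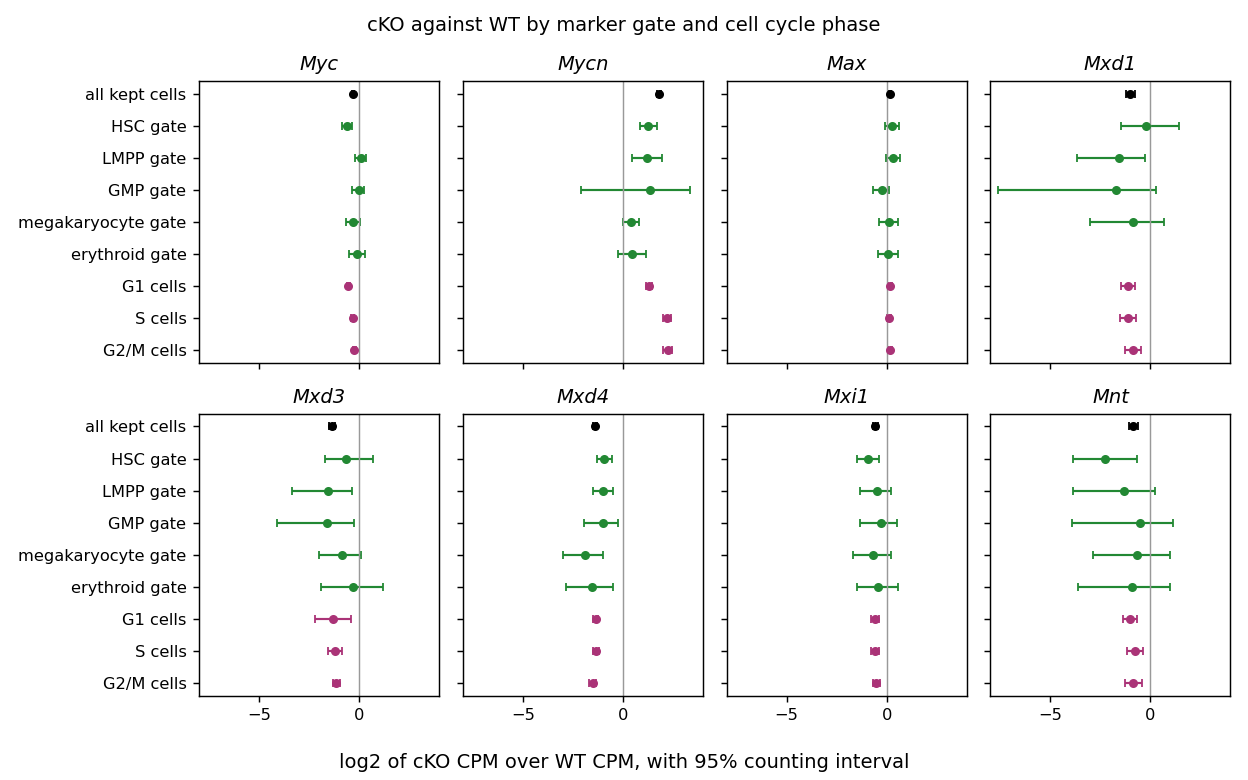
Each panel gives, for 1 gene, the log2 ratio of cKO over WT CPM in all kept cells (black), in 5 marker gates (green) and in 3 cell cycle phases (purple), with 95% intervals for counting error. Mycl is left out, and so is Mxd1 in the erythroid gate, where neither library had more than 3 UMIs. Mycn lies to the right of 0 and Mxd4 to the left in every class, with intervals of Mycn that include 0 in the GMP and erythroid gates.

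Cell cycle phases were assigned from S and G2/M genes that include no network gene. G1, S and G2/M held 43.2%, 26.0% and 30.8% of the WT library, compared with 37.7%, 35.1% and 27.2% of the cKO library. In WT, Mycn was at 42.1, 15.5 and 11.4 CPM in G1, S and G2/M cells, and in cKO at 104, 71.1 and 53.7 CPM. Mycn was therefore highest in G1 cells of both libraries, and lower in G2/M than in G1 by a log2 ratio of -1.89 (-2.13 to -1.65) in WT and -0.95 (-1.04 to -0.86) in cKO. The cKO level was higher than WT in each phase, by 1.30 (1.16 to 1.44), 2.20 (1.99 to 2.42) and 2.24 (2.03 to 2.46) on the log2 scale, where intervals lay above 0 for 26.3%, 29.1% and 29.9% of all genes at 5 CPM or more. In G1 cells of the HSC gate alone it was at 64.6 CPM in WT against 166 CPM in cKO, which gives a log2 ratio of 1.35 (0.92 to 1.84). In the erythroid gate the shares of thinned cells with a Mycn UMI had overlapping intervals in each phase. They were 9.86% in WT and 26.3% in cKO in G1, 10.2% and 15.8% in S, and 11.5% and 4% in G2/M.

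Myc was at 207, 175 and 114 CPM in WT cells of G1, S and G2/M and at 142, 142 and 97.2 CPM in cKO cells. It was lower in G2/M cells than in G1 cells of both libraries. Its log2 ratio between libraries was -0.55 (-0.62 to -0.47) in G1, -0.31 (-0.38 to -0.23) in S and -0.23 (-0.31 to -0.14) in G2/M.

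Mxd3 ran the opposite way through the cycle. It was at 1.95, 10.8 and 34.2 CPM in WT cells of G1, S and G2/M and at 0.791, 4.75 and 15.7 CPM in cKO cells. G2/M cells exceeded G1 cells by 4.11 (3.54 to 4.81) on the log2 scale in WT and by 4.27 (3.68 to 5.01) in cKO. The intervals of the 2 libraries overlap for this step between phases, while the level was lower in cKO in each phase, by log2 ratios of -1.30, -1.19 and -1.13. The G1 values rest on 23 UMIs in WT and 21 in cKO. With phases set at 3000 UMIs the G1 log2 ratio was -2.42, with cKO at 0.340 CPM. With phases from summed UMIs the cKO level in G1 was 0.301 CPM, so the size of the step in cKO depends on the setting.

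Mxd4 was at 93.6, 43.8 and 51.0 CPM in WT cells of G1, S and G2/M and at 36.7, 17.3 and 17.9 CPM in cKO cells. It was highest in G1 cells of both libraries and lower in cKO in each phase, by -1.35, -1.34 and -1.51 on the log2 scale. Mxd1, Mxi1 and Mnt were also highest in G1 cells of each library. For Mnt in cKO, however, the log2 ratio of S over G1 of -0.24 had an interval (-0.60 to 0.11) that included 0. Across the 5 antagonists and 3 phases, all 15 intervals of the log2 ratio lay below 0, and they did so too with phases from summed UMIs and with 1000 or 3000 UMIs. Over all genes at 5 CPM or more the interval lay below 0 for 42.5% in G1, 33.4% in S and 36.4% in G2/M cells.

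**Figure D5:**
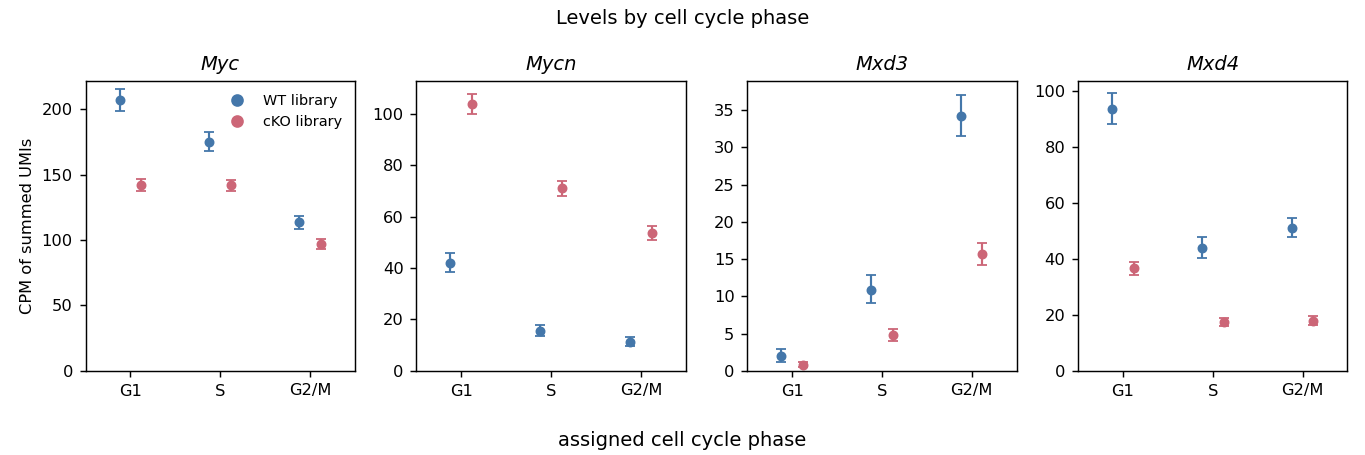
CPM of Myc, Mycn, Mxd3 and Mxd4 in cells assigned to G1, S and G2/M, for the WT (blue) and cKO (red) library, with exact Poisson 95% intervals on linear axes from 0. Mycn is highest in G1 and higher in cKO in each phase, while Mxd3 climbs from G1 to G2/M to 34.2 CPM in WT against 15.7 CPM in cKO.

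Genes whose level followed a member across 35 classes of gate and phase (18 from WT and 17 from cKO, centred within each library) were ranked by Pearson correlation over 4654 genes, as a description, since the classes share libraries and differ in depth. For Mycn the closest included Uba7 (r = 0.93) and Angpt1 (r = 0.91), which encodes angiopoietin 1. For Mxd4 they were Rnf114 (r = 0.74), Rps27 (r = 0.73) and Spry2 (r = 0.73), and for Myc they were Klf13 (r = 0.67), Alkbh1 (r = 0.65) and Apex1 (r = 0.64). For Max they were Bfar (r = 0.61), Nfkbia (r = 0.60) and Nosip (r = 0.59).

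Other genes of the network were read from lists, as counts past a log2 ratio of 0.5 with no test, beside the 8.96% higher and 17.8% lower of all genes. The other scalings named above add up to 0.10 to every log2 ratio, which turns the sign of Mlx and of the median of the cofactors, leaves 1 cofactor lower in place of 2, and puts 15 MYC-induced genes past 0.5 in place of 13. The MLX branch pairs MLX with relatives of MYC and MXD, and its list here also held Mga, a MAX-binding repressor. Of the list's 4 genes 3 were at 5 CPM or more, and of these none was past 0.5 upwards and 1 was lower. Mlx was at a log2 ratio of -0.02, Mga at -0.33, and Mlxip, which encodes the glucose-sensing MondoA, at -0.62. Among 15 cofactors and corepressors, 1 was higher and 2 were lower, with a median of -0.08 that lies close to the -0.07 of all genes. Kat2a, a histone acetyltransferase, was at 0.53 and Wdr5, a chromatin adaptor of MYC, at 0.36, while Bptf, a nucleosome remodelling subunit, was at -0.56 and Bin1, a MYC-interacting adaptor, at -1.52 (76.2 CPM in WT against 26.5 CPM in cKO).

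Of 10 genes of MYC protein turnover, 9 were at 5 CPM or more, and of these 1 was higher and none was lower, with a median of 0.13. Pim2, a kinase that stabilises MYC, was at 0.86 and Usp36, a nucleolar deubiquitinase, at 0.36, whereas Ppp2r5e, a phosphatase subunit, was at -0.10 and Pim1, a kinase of the same family as Pim2, at -0.32.

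Of 25 genes known to be induced by MYC, 24 were at 5 CPM or more, and of these 13 were higher and 1 was lower, with a median log2 ratio of 0.53. Srm, which encodes spermidine synthase, was at 0.75 (211 CPM in WT against 355 CPM in cKO), and Bop1, a factor of ribosomal RNA maturation, was at 0.74. Fbl, which encodes the nucleolar methyltransferase fibrillarin, was at 0.07 and Tfrc, the transferrin receptor, at -0.68.

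Of 15 genes known to be repressed by MYC, 13 were at 5 CPM or more, and of these 2 were higher and 9 were lower, with a median of -1.19. Cdkn1c, a cell cycle inhibitor of quiescent stem cells, was at 1.98 (7.48 CPM in WT against 29.6 CPM in cKO) and Ndrg2 at 0.63. Cebpa, a master regulator of granulocyte-monocyte progenitors, was at -1.87 and Pdgfrb, a growth factor receptor, at -3.13. The GMP gate held 9.44% of WT cells and 0.514% of cKO cells, and its part in the level of Cebpa was not tested. This list holds inhibitors of the cycle, stress genes and lineage factors, and the lists were drawn up with results of these data known, so its median is a description.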

How the data were processed

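Single-cell RNA was measured in 1 WT and 1 cKO library of sorted LSK cells. The deposited files hold raw UMI counts of each gene in each barcode. The submitters' processing notes name Cell Ranger 6.0.0 and the build mm10. The labels name the v2 3′ kit and the study's methods the v3 kit. The study's limits were kept: over 200 genes, under 4000 (WT) or 4500 (cKO) genes, under 10% (WT) or 5% (cKO) mitochondrial UMIs, and under 5% haemoglobin UMIs. Likely doublets were removed at 0.8% per 1000 barcodes, scored among 50 neighbours in 20 components (614 WT and 674 cKO cells).

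Phases and gates were set on cells thinned to 2000 UMIs, so that 195 shallower WT cells and 104 of cKO were dropped from them. A gate needed the UMIs that at most 10% of WT cells reached (1% for other lineages) and 2 markers, and a cell in several gates counted in none (156 WT and 89 cKO cells). log2 ratios used 0.5 prior counts. Intervals were exact (scipy 1.17.1). Poisson intervals stand beside CPM, binomial intervals conditional on the summed UMIs beside log2 ratios, and Clopper-Pearson intervals beside percentages of cells or UMIs, with the normal approximation for paralog per antagonist ratios. With 1 library per genotype no test was possible. Gene coordinates came from GENCODE M21. TMM factors came from edgeR 4.0.16. Scripts were tested on simulated data.

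Named were all 9 members, Trmt6, the 2 highest and 2 lowest genes of each list at 5 CPM or more, and the 3 genes most like each member at 20 CPM or more in both libraries, on log2(CPM + 5). Members and lists were chosen with earlier results of these data known. One gene that this rule names is not reported here.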

Additional observations from a re-analysis of the deposited data

How the results depend on the processing

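No paired analysis was possible because each genotype is 1 library. Of 535 values under alternative cell filters, scalings, gates and phases, 1 changed the sign of a value whose interval had excluded 0: Mxd3 in the LMPP gate, at 0.37 with gates set at 1000 UMIs. Of the alternatives for the main results, 15 moved outside the main interval, or away from the main count of members, and 42 did not. These results were Myc, Mycn and paralogs per antagonist over all cells, members past 0.5, and Mycn and Mxd4 in the HSC gate. Among the other values 39 moved in this way. Over all cells, the log2 ratio of Myc was -0.22 with TMM factors, -0.21 with median-of-ratios factors, -0.22 with a total without mitochondrial and ribosomal protein genes, -0.40 with the same mix of gates and phases, -0.44 with cells thinned to 2000 UMIs and -0.45 with each cell scaled before averaging. The value of Mycn was 1.49 with the same mix, 1.52 with thinned cells and 1.48 with each cell scaled. The log2 ratio of paralog per antagonist UMIs was 1.16 with the same mix and 1.11 with thinned cells. Past a log2 ratio of 0.5 were 4 members when only those at 10 CPM or more were counted. Of these, Mycn was higher and Mxd3, Mxd4 and Mxi1 were lower, while Myc and Max at that level were not past 0.5. Of all 7400 genes at 10 CPM or more, 8.66% were higher and 16.1% lower. In the HSC gate, Mxd4 was at -1.34 with gates at 20% of WT cells and at -0.43 with at least 3 markers, and Mycn was at 0.48 with gates set at 1000 UMIs. The cause of these shifts was not tested. Mycl, Mnt and Mxd1 are limited by depth, with 5 to 368 UMIs in cKO. All intervals cover counting error only, and variation between mice is unknown.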
